A study of Mus musculus with 9 samples.

Results

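Polyamine synthesis and antizyme genes were followed across 3 mouse striatal cell lines by ribosome profiling, which counts the short mRNA fragments that a translating ribosome shields from nuclease. The members were chosen by symbol for their known place in the pathway, with earlier results of these data known: Odc1, Amd1, Srm and Sms for synthesis, Oaz1 and Oaz2 for antizymes, Azin1 for the antizyme inhibitor, and Sat1, Smox and Paox for acetylation and oxidation. All 10 were found among the 36410 gene rows of the deposited table, and all 10 passed the filter on low counts that left 12678 genes tested.

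The polyamines putrescine, spermidine and spermine are small positively charged metabolites that bind RNA and DNA and that every growing cell needs. Ornithine decarboxylase makes putrescine, and aminopropyl groups donated by decarboxylated S-adenosylmethionine then turn it into spermidine and spermine. The pathway is best known for its feedback: polyamines raise the output of antizyme by promoting a ribosomal frameshift on its mRNA, antizyme sends ornithine decarboxylase to the proteasome and limits polyamine uptake, and the antizyme inhibitor captures antizyme. Spermidine has a second known use, as the source of hypusine, a modified lysine of the translation factor eIF5A. In neural tissue, spermine also acts on ion channels, among them glutamate receptors and inward rectifier potassium channels.

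The lines are immortalized striatal cells from mouse embryos of the C57/BL6 strain, in which the huntingtin exon carries a glutamine repeat. The embryos were wild type for the control line and knock-in for the mutant lines. Control cells are STHdhQ7/Q7, with 7 glutamines on both alleles, HD-het cells are STHdhQ7/Q111, with 7 and 111, and HD-homo cells are STHdhQ111/Q111, with 111 on both. All 9 libraries, 3 from each line, came from untreated cultures that received cycloheximide for 10 min before harvest, and footprints of 26 to 32 nt were cut from the 80S monosome fraction. Each genotype was 1 line, so that genotype and line cannot be told apart, and the replicates were repeat cultures of that line.

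The libraries held 22504543 to 41888701 counts, and replicates of a line correlated at r of 0.987 to 0.995 across genes on the log scale. By edgeR's estimate, replicate cultures varied by 8.83% (control), 10.5% (HD-het) and 16.0% (HD-homo) beyond counting error. Of 11 markers of striatal projection neurons, 3 reached a mean of 1 CPM (counts per 1000000, after scaling of the library size) in each line, and the defining receptors Drd1 and Drd2 were at a count of 0 in all libraries. Of 4 neural precursor markers, Vim was high throughout, whereas Nes averaged 400 CPM for control cells, 1086 for HD-het and 7.01 for HD-homo. Sox2 averaged 51.2, 33.9 and 2.26 CPM in that order of lines, and Pax6 17.3, 24.8 and 0.0759. Of 5 fibroblast and mesenchymal markers, 4 reached 1 CPM in each line, and their summed level was 2336 to 4259 CPM in control, 15112 to 18392 in HD-het and 5103 to 6382 in HD-homo. Most of that sum was Col1a1, which with Pdgfrb was highest in HD-het, whereas the other 3 were highest in HD-homo, Col1a2 at means of 24.0, 88.9 and 1027 CPM in the same order of lines, Dcn at 7.30, 11.5 and 40.6, and Lum at 0, 0.0249 and 0.267. The astrocyte marker Aqp4, the oligodendrocyte marker Mog and the microglial marker Cx3cr1 were at 0 throughout, but other markers were counted, those of oligodendrocytes at a sum of 0.532 CPM or less. The 5 microglial markers summed to 4.93 to 6.65 CPM in control, 18.6 to 26.8 in HD-het and 4.63 to 6.17 in HD-homo, mainly from Tmem119, and the 5 astrocyte markers to 2.48 to 4.01, 2.20 to 3.07 and 11.96 to 14.1, with Slc1a3 highest in HD-homo.

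The frameshift windows of both antizymes are shown because they bear on what an antizyme count can mean. In each, capitals mark the last codon of the first frame and the stop codon that ends it. RefSeq leaves the T of that stop out of the coding sequence, which stands for the base the ribosome passes over when it shifts. The Oaz1 window lies on the plus strand at chr10:80828280-80828309 and the Oaz2 window on the plus strand at chr9:65686257-65686286, in exons of the GRCm38 assembly.
Oaz1: cctcggtggtgcTCCTGAtgtccctcaccc
Oaz2: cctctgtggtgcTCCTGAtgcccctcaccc
The windows differ at 2 of 30 bases, none of them in capitals. The first frame runs for 68 codons in Oaz1 and 32 codons in Oaz2 before this stop. A count summed over the gene holds ribosomes of the first frame and ribosomes that shifted, and the gene totals used here do not separate them.

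A second pair of windows is shown because it bears on how the Amd1 row can be read. Amd1 has 8 exons, and its copy Amd2 on the same chromosome has 1, and their coding sequences of 1005 bases differ at 1 base, written G796C, with positions counted from the first coding base of Amd1. The capital marks that base.
Amd1: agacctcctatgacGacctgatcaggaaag
Amd2: agacctcctatgacCacctgatcaggaaag
The 2 rows held equal counts in 8 of 9 libraries and differed by 1 count in the other. A fragment that does not cover this base fits both genes, so the values given for Amd1 cannot be assigned to 1 copy. Whether such fragments were counted in both rows or shared between them is not known. The RefSeq annotation also holds pseudogenes of Amd1, Sms and Oaz1. The row of the Oaz1 pseudogene was at 0 in all libraries, and the share of the others was not tested. Gm30679, which overlaps exons of Smox on the other strand, was also at 0.

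Of the 10 members, 7 were lower in HD-het cells than in control (Odc1, Amd1, Srm, Sms, Oaz1, Azin1 and Smox), 1 was higher (Paox), and 2 did not pass the test (Oaz2 and Sat1). Over all tested genes, 60.1% were called in this comparison by edgeR's quasi-likelihood test at an adjusted p under 0.05, with 29.1% lower and 31.0% higher. The median log2 fold change was -0.88 over the members and 0.02 over all tested genes. The summed level of the 10 members was 815 ± 26.3 CPM in control (SD, n = 3), 437 ± 25.3 in HD-het and 798 ± 42.4 in HD-homo.

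**Figure D1:**
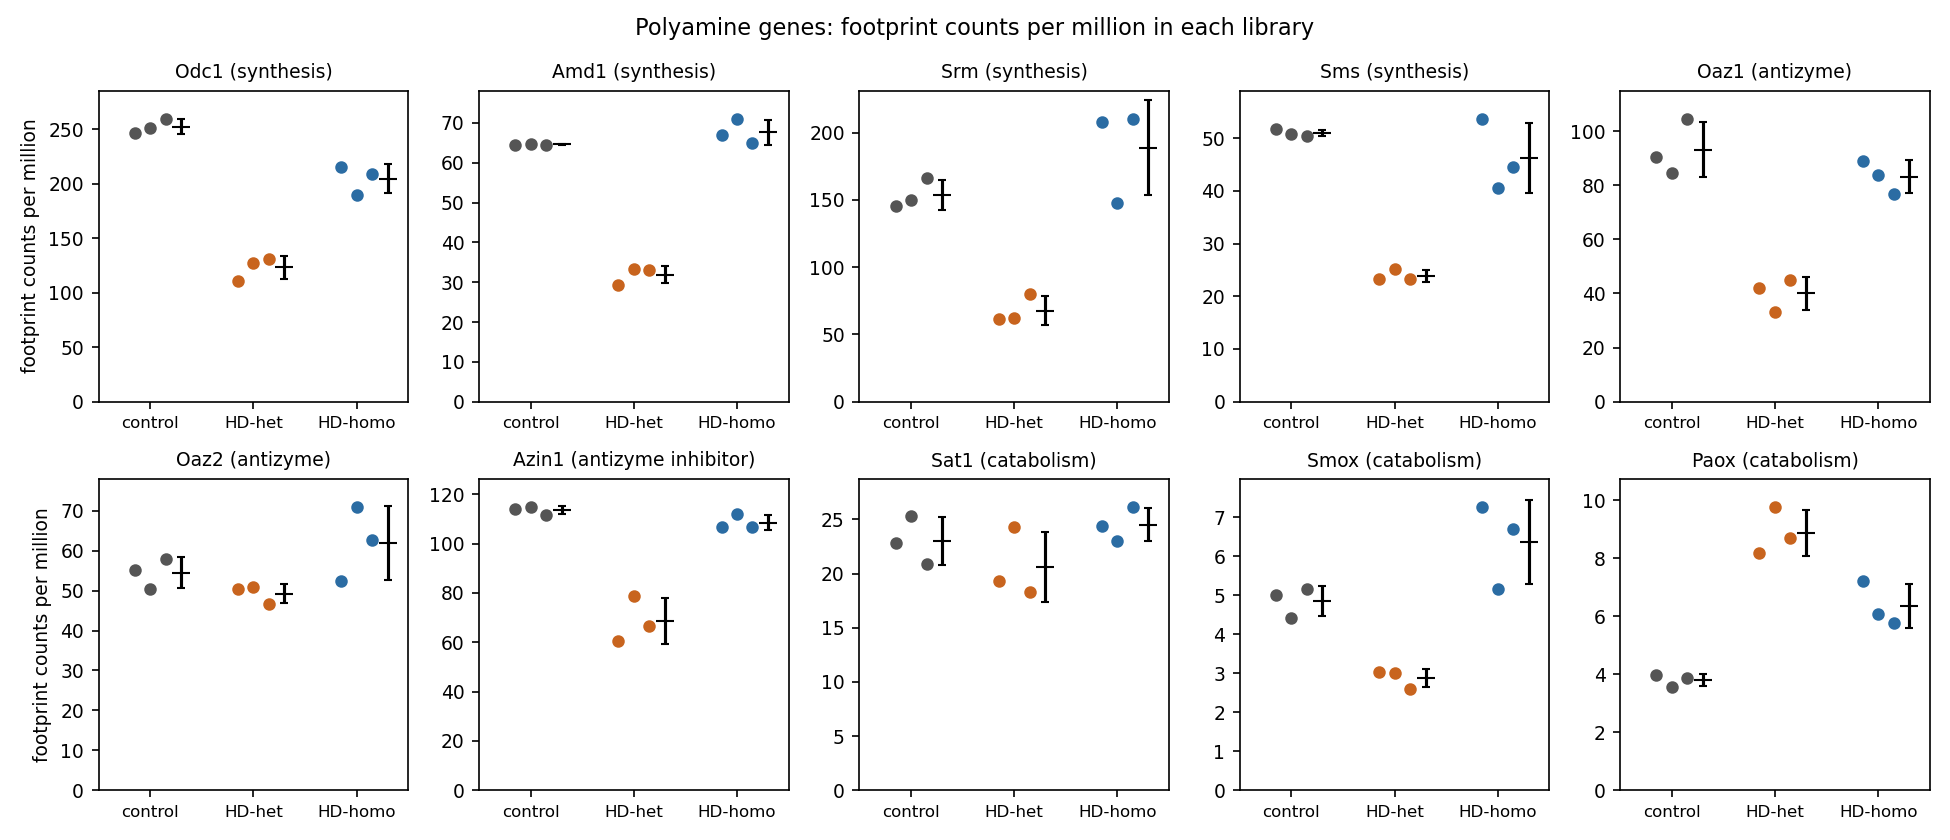
Footprint level of each member in CPM (vertical axis, linear and from 0, scaled for each gene) in the 3 libraries of each line (points, in replicate order), with the mean and SD beside them. In 7 panels the HD-het points lie below all control points, while Paox alone has its HD-het points on top.

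Odc1, on the plus strand at chr12:17544808-17551502 (GRCm38, as for the positions that follow), encodes ornithine decarboxylase, the entry enzyme of the pathway. Its level was 247, 251 and 259.7 CPM in the control libraries, 111, 127 and 131 in HD-het, and 216, 190.0 and 209 in HD-homo. The 3 lines did not overlap, with HD-het lowest and HD-homo between the others. The log2 fold change was -1.04 (SE 0.09) in HD-het against control (edgeR adjusted p = 2.7e-06), a level 0.488 times that of control. HD-homo fell by 0.30 (SE 0.09) on the log2 scale (edgeR adjusted p = 0.0135), the one called decrease among the members in that comparison.

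Amd1, on the minus strand at chr10:40287458-40302188, encodes S-adenosylmethionine decarboxylase, which makes the aminopropyl donor. Its level was 64.5, 64.8 and 64.5 CPM in control, 29.3, 33.2 and 33.2 in HD-het, and 67.0, 71.0 and 64.9 in HD-homo. Control and HD-homo lay side by side, and all HD-het libraries were at about one level well below them. The spread of the control libraries, 0.256% of their mean, was below the 2.25% that counting alone gives, so it is no measure of how closely such cultures agree. The log2 fold change was -1.02 (SE 0.08) in HD-het (edgeR adjusted p = 1.9e-06) and 0.07 (SE 0.08) in HD-homo (edgeR adjusted p = 0.525, 95% interval -0.11 to 0.24).

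Srm, on the plus strand at chr4:148591513-148594619, encodes spermidine synthase, and Sms, on the minus strand at chrX:157443851-157492287, encodes spermine synthase, which adds the next aminopropyl group. Srm stood at 145, 149.9 and 166 CPM in control, 61.2, 62.3 and 79.8 in HD-het, and 208, 148 and 210.2 in HD-homo. All HD-het libraries were low, and HD-homo had 2 libraries above every control library and 1 inside the control range. Relative to control, the log2 fold change of Srm was -1.18 (SE 0.15) in HD-het (edgeR adjusted p = 4.0e-05) and 0.29 (SE 0.14) in HD-homo (edgeR adjusted p = 0.115). Without HD-homo replicate 2, the latter became 0.44 (edgeR adjusted p = 0.0103).

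Sms stood at 51.7, 50.8 and 50.5 CPM in control, 23.3, 25.2 and 23.3 in HD-het, and 53.7, 40.6 and 44.4 in HD-homo. HD-het was again low in every library, and the HD-homo libraries lay on both sides of control. The log2 fold change was -1.09 (SE 0.11) in HD-het (edgeR adjusted p = 7.3e-06) and -0.14 (SE 0.10) in HD-homo (edgeR adjusted p = 0.294). Without HD-homo replicate 1, the latter became -0.26 (edgeR adjusted p = 0.0299). Summed over the 4 synthesis genes, the level was 522 ± 16.9 CPM in control (SD, n = 3), 247 ± 21.3 in HD-het and 507 ± 50.7 in HD-homo.

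The 2 antizymes, whose products bind ornithine decarboxylase, differed between the lines to unequal extents. Oaz1 stood at 90.6, 84.4 and 105 CPM in control, 42.0, 33.1 and 45.0 in HD-het, and 89.1, 83.6 and 76.7 in HD-homo. HD-het was low in each library, and the other lines overlapped. The log2 fold change was -1.22 (SE 0.12) in HD-het (edgeR adjusted p = 1.1e-05), and -0.16 (SE 0.12) in HD-homo (edgeR adjusted p = 0.300). Oaz2 stood at 55.1, 50.3 and 58.0 CPM in control, 50.3, 51.0 and 46.5 in HD-het, and 52.3, 70.9 and 62.7 in HD-homo. HD-het and HD-homo each overlapped control, with log2 fold changes of -0.14 (SE 0.11, edgeR adjusted p = 0.283) and 0.19 (SE 0.11, edgeR adjusted p = 0.196). The second of these became 0.29 without HD-homo replicate 1 (edgeR adjusted p = 0.0294).

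Azin1, on the minus strand at chr15:38487430-38519294, encodes the antizyme inhibitor, which resembles ornithine decarboxylase, has no decarboxylase activity and takes up antizyme. Its level was 114, 115 and 112 CPM in control, 60.3, 78.8 and 66.4 in HD-het, and 107, 112 and 107 in HD-homo. HD-het lay below the other lines, and HD-homo overlapped control. The log2 fold change was -0.73 (SE 0.10) in HD-het (edgeR adjusted p = 6.6e-05), a level 0.604 times that of control, and -0.07 (SE 0.09) in HD-homo (edgeR adjusted p = 0.605).

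The genes of polyamine breakdown did not follow a single course. Sat1, on the minus strand at chrX:155213126-155216449, encodes the acetyltransferase that marks spermidine and spermine for export or oxidation. It stood at 22.8, 25.4 and 20.9 CPM in control, 19.3, 24.3 and 18.3 in HD-het, and 24.4, 23.0 and 26.1 in HD-homo. All 3 lines overlapped one another in part, and Sat1 was the one member with no difference called among the lines (edgeR adjusted p = 0.197). Its log2 fold change in HD-het was -0.16 (SE 0.12, 95% interval -0.43 to 0.11, edgeR adjusted p = 0.283), and -0.31 without HD-het replicate 2 (edgeR adjusted p = 0.0423).

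Smox, on the plus strand at chr2:131491858-131525183, encodes spermine oxidase, and Paox, on the plus strand at chr7:140115735-140134334, encodes the oxidase that acts on the acetylated polyamines. Smox stood at 5.00, 4.42 and 5.15 CPM in control, 3.04, 3.00 and 2.60 in HD-het, and 7.26, 5.16 and 6.70 in HD-homo, from 55 to 261 counts a library. Every HD-het library was below and every HD-homo library above control, the last by a narrow margin in replicate 2. The log2 fold change was -0.74 (SE 0.16) in HD-het (edgeR adjusted p = 0.0020) and 0.40 (SE 0.15) in HD-homo (edgeR adjusted p = 0.0505). The latter passed the threshold with total counts in place of composition factors (0.42, edgeR adjusted p = 0.0430), with at least 10 counts required in every library (edgeR adjusted p = 0.0478), with offsets for GC content and coding length (0.46, edgeR adjusted p = 0.0182) and without HD-homo replicate 2 (0.53, edgeR adjusted p = 0.0085).

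Paox stood at 3.97, 3.57 and 3.88 CPM in control, 8.20, 9.76 and 8.70 in HD-het, and 7.20, 6.08 and 5.77 in HD-homo, from 103 to 355 counts a library. The 3 lines did not overlap, with control lowest and HD-het highest. It was the one member that rose in both mutant lines, by 1.23 (SE 0.13) on the log2 scale in HD-het (edgeR adjusted p = 1.6e-05) and by 0.75 (SE 0.13) in HD-homo (edgeR adjusted p = 0.00088).

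Fewer members were called in HD-homo cells. Of the 10, Paox was higher, Odc1 was lower, and 8 did not pass the test, where 45.7% of all tested genes were called, 23.3% higher and 22.3% lower. The median log2 fold change was 0.08 over the members and 0.02 over all tested genes. The libraries of HD-homo and control did not overlap for 4 members (Odc1, Amd1, Smox and Paox), against 55.5% of all tested genes. In HD-het against control they did not overlap for 8 members, against 71.2%.

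**Figure D2:**
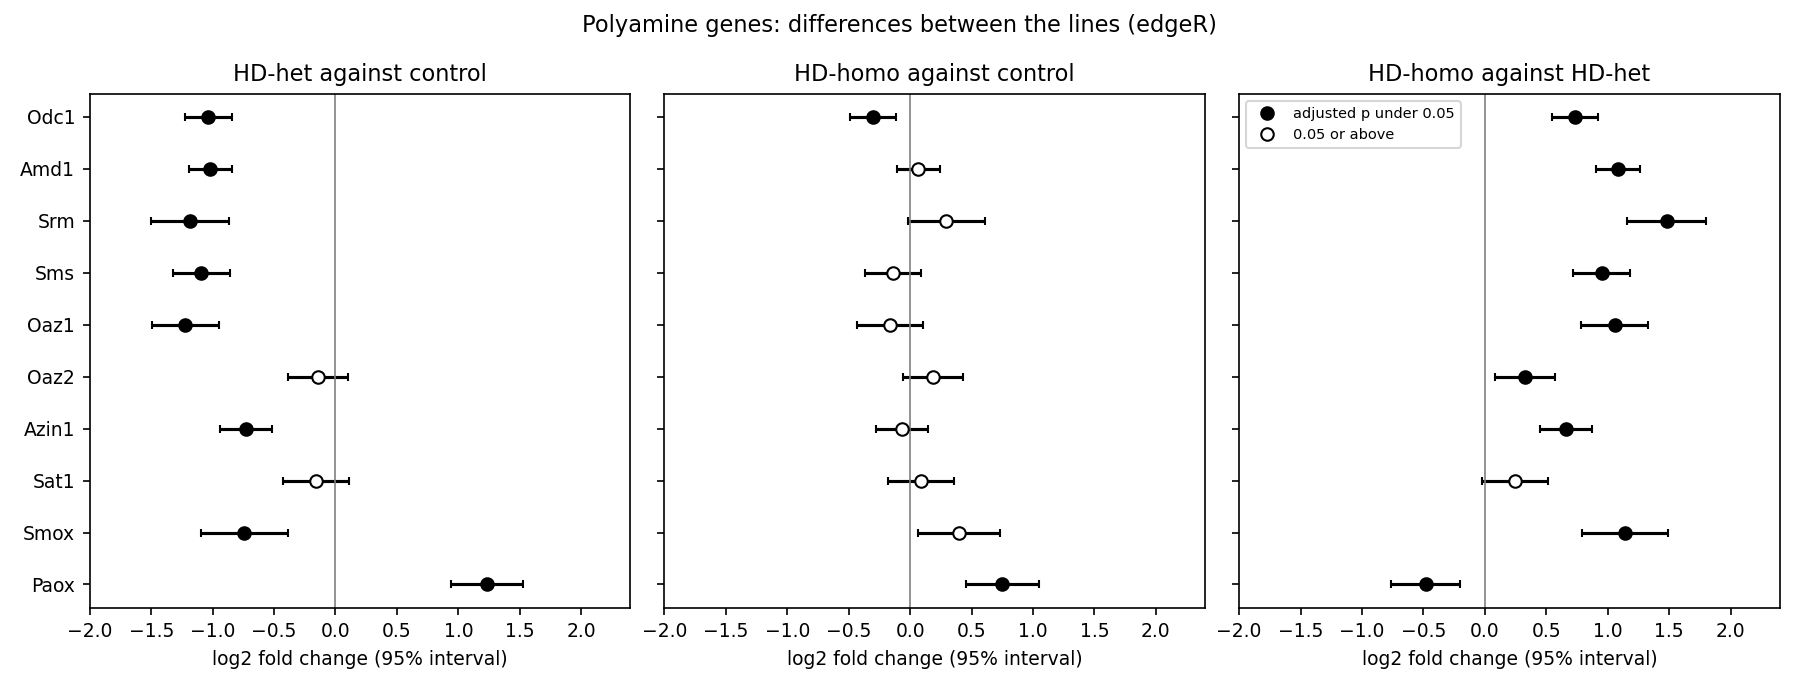
Log2 fold change of each member (horizontal axis) in the 3 comparisons, with 95% intervals from the edgeR fit, filled where the adjusted p is under 0.05. The 4 synthesis genes and Oaz1 lie between -1.22 and -1.02 in HD-het against control and between -0.30 and 0.29 in HD-homo against control.

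Set against HD-het, HD-homo cells had 8 members higher and 1 lower, where 34.6% of all tested genes were higher, 32.8% lower and 67.5% called in all. The libraries of these lines did not overlap for 9 members, against 69.5% of all tested genes. Both comparisons that use HD-het share its 3 libraries, so they are not independent views of it. The log2 differences were 1.48 (SE 0.15) for Srm, 1.14 (SE 0.16) for Smox, 1.08 (SE 0.08) for Amd1, 1.06 (SE 0.12) for Oaz1, 0.95 (SE 0.11) for Sms, 0.73 (SE 0.09) for Odc1 and 0.66 (SE 0.10) for Azin1, with edgeR adjusted p from 5.6e-07 to 9.1e-05. Paox was lower in HD-homo by a log2 difference of -0.48 (SE 0.13, edgeR adjusted p = 0.0060). Sat1 did not pass, at 0.25 (SE 0.12, edgeR adjusted p = 0.0958), and did pass with total counts in place of composition factors (edgeR adjusted p = 0.0457) and without HD-het replicate 2 (0.38, edgeR adjusted p = 0.0151).

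Against HD-het, Oaz2 in HD-homo was higher by 0.33 (SE 0.11, edgeR adjusted p = 0.0210). That call was lost with offsets for GC content and coding length (0.10, edgeR adjusted p = 0.432), with only the 6 libraries compared (edgeR adjusted p = 0.0592), without HD-het replicate 3 (edgeR adjusted p = 0.0664) and without HD-homo replicate 2 (edgeR adjusted p = 0.0749). Across the 3 lines together, 9 members differed, where 78.4% of all tested genes did, and Oaz2 was at the edge (edgeR adjusted p = 0.0491). Its call over the 3 lines was lost in 12 of 16 alternatives, whose adjusted p ran from 0.0051 to 0.141, among them RLE size factors (edgeR adjusted p = 0.0585), DESeq2 (adjusted p = 0.0505), and each of the 9 libraries left out except HD-homo replicate 1.

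Of the fibroblast and mesenchymal markers given above, Col1a1, Pdgfrb and the sum were highest in HD-het and Col1a2, Dcn and Lum in HD-homo. The microglial sum, mainly Tmem119, was highest in HD-het, whereas Csf1r was highest in HD-homo and P2ry12 in control. The astrocyte sum was highest in HD-homo. What part the cells behind such markers have in these results was not tested. Fewer mRNAs and fewer ribosomes on each mRNA cannot be told apart in footprint counts, nor can fewer cells of a kind and less RNA in each.

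Levels were set against one another per kilobase of coding sequence, as CPM per coding kb. For Oaz1 and Oaz2 this length is that of the full frameshifted sequence, while their counts also hold ribosomes that stopped in the first frame. For all members, whether footprints outside the coding sequence were counted is not known. In control the order was Odc1 at 182 ± 4.69 (SD, n = 3), Srm at 169 ± 12.2, Oaz1 at 136 ± 15.1, Oaz2 at 95.6 ± 6.79, Azin1 at 84.3 ± 1.15, Amd1 at 64.3 ± 0.165, Sms at 46.3 ± 0.587, Sat1 at 44.6 ± 4.32, Smox at 2.91 ± 0.231 and Paox at 2.51 ± 0.139. Only 2 neighbouring pairs in that order overlapped between libraries, Odc1 with Srm and Sms with Sat1. The oxidases therefore held far fewer footprints per coding kb than the other members in control cells.

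In HD-het the top of the order closed up. Odc1 at 88.9 ± 7.66 CPM per coding kb (SD, n = 3) overlapped Oaz2 at 86.4 ± 4.19, which in turn overlapped Srm at 74.5 ± 11.5, and Oaz1 came next at 58.5 ± 9.07. Paox at 5.87 ± 0.527 stood above Smox at 1.73 ± 0.145 without overlap, the reverse of control. In HD-homo, Srm led at 208 ± 38.9, every library above Odc1 at 148 ± 9.55, and Paox at 4.19 ± 0.499 overlapped Smox at 3.82 ± 0.651.

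Ratios within a library do not depend on its scaling. The ratio of Odc1 to the sum of Oaz1 and Oaz2, enzyme to antizyme per coding kb, was 0.778, 0.856 and 0.736 in control, 0.536, 0.666 and 0.642 in HD-het, and 0.700, 0.556 and 0.678 in HD-homo. Both mutant lines lay below control without overlap, and they overlapped each other. In HD-het against control, the log2 fold change was -1.22 for Oaz1, -1.04 for Odc1 and -0.14 for Oaz2. The lower ratio of HD-het thus rests on Oaz2 in the sum, since Odc1 did not fall more than Oaz1. A ratio to Oaz1 alone was not formed. The ratio of Azin1 to the same antizyme sum overlapped in all lines, with means of 0.366 ± 0.038 in control (SD, n = 3), 0.353 ± 0.065 in HD-het and 0.350 ± 0.011 in HD-homo. The ratio of Azin1 to Odc1, antizyme inhibitor to enzyme, averaged 0.463 ± 0.017 for control cells, 0.572 ± 0.059 for HD-het and 0.547 ± 0.052 for HD-homo, with all mutant libraries above control. The values of these ratios have no test beyond the overlap of libraries, and 3 libraries against 3 limit what overlap can show. Those with the antizyme sum also rest on the coding lengths taken for Oaz1 and Oaz2.

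The ratio of Sms to Srm, spermine synthase to spermidine synthase, was 0.294, 0.280 and 0.250 in control, 0.314, 0.334 and 0.241 in HD-het, and 0.213, 0.227 and 0.175 in HD-homo. HD-homo lay below both other lines, which overlapped each other. A further 2 ratios were formed after the values had been seen. Oaz2 to Oaz1 was 0.704 ± 0.033 in control (SD, n = 3), 1.51 ± 0.310 in HD-het and 0.901 ± 0.171 in HD-homo. Per coding kb, Oaz2 was thus below Oaz1 in control and above it in HD-het. Another choice of length would multiply this ratio by the same factor in all lines, so only its change between lines is free of that choice. Paox to Smox averaged 0.863 ± 0.032 for control cells, 3.41 ± 0.385 for HD-het and 1.11 ± 0.175 for HD-homo.

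**Figure D3:**
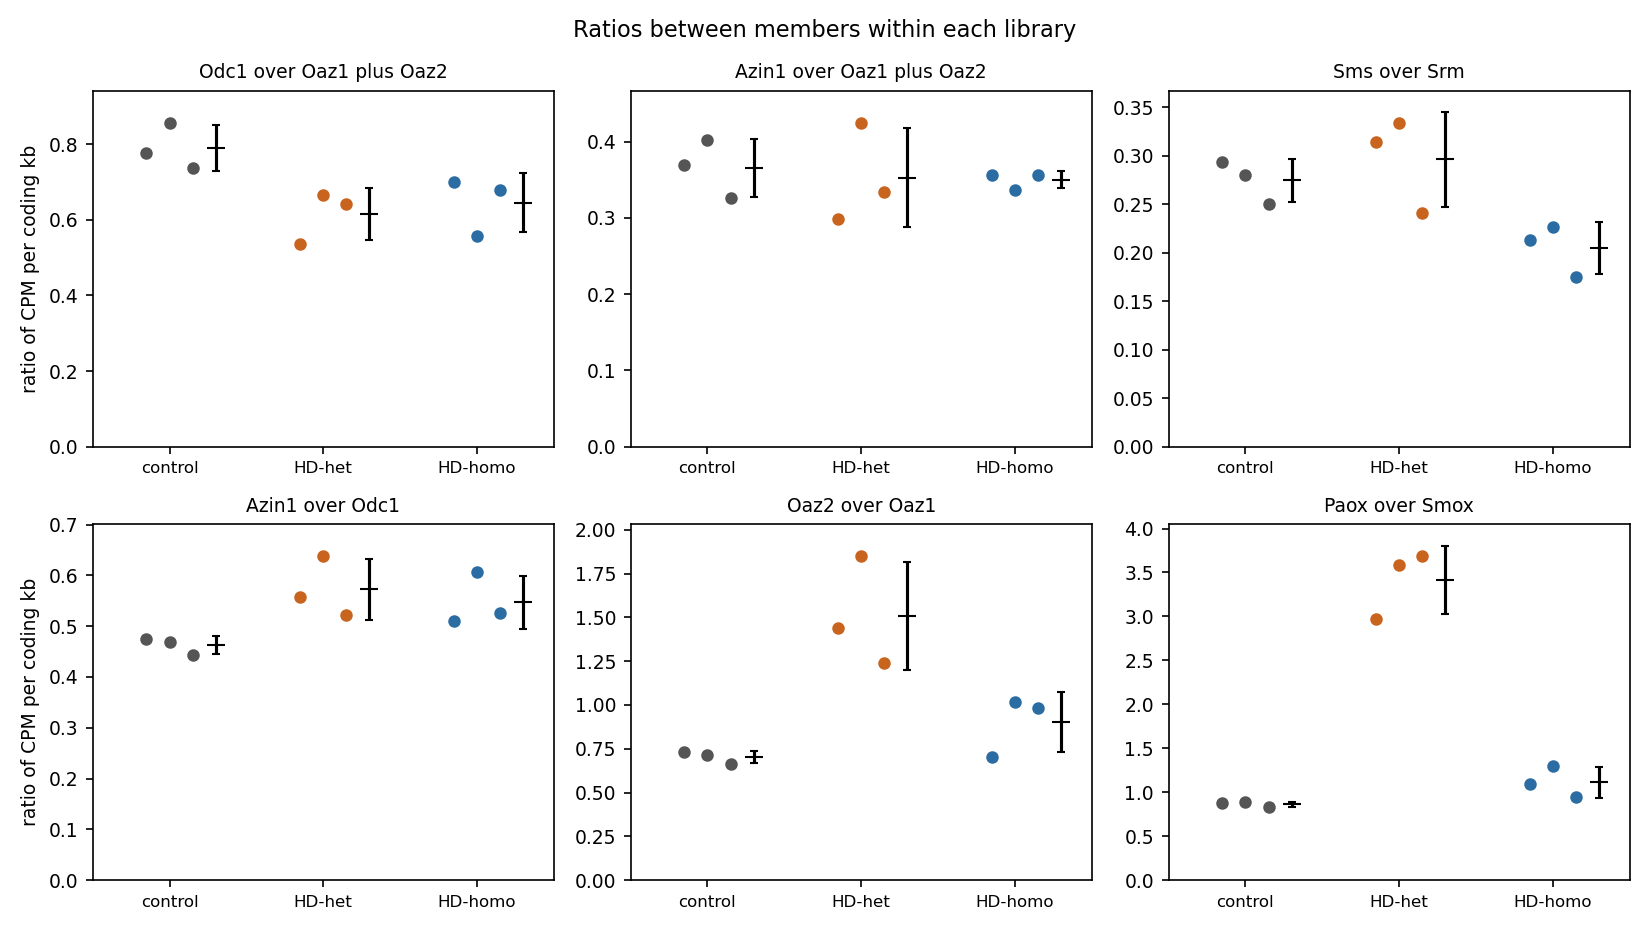
Ratios of CPM per coding kb between members (vertical axes, from 0) in each library of each line (points), with mean and SD. The ratio of Odc1 to the sum of both antizymes is lower in all 6 mutant libraries than in control. The last 2 panels show the ratios formed after the values had been seen.

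Among the other genes of the pathway, 34 in 6 lists, 27 were tested, and Amd2, which repeats the Amd1 counts, is left out of the counts that follow. Of the 26 remaining, 8 were higher, 11 lower and 7 not called in HD-het against control, beside 31.0% higher and 29.1% lower over all tested genes. In HD-homo against control, 8 were higher, 2 lower and 16 not called, beside 23.3% and 22.3%. HD-homo against HD-het had 13 higher, 7 lower and 6 not called, beside 34.6% and 32.8%. The single lists hold 2 to 6 tested genes each and are described against these same shares, with no test of a list.

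Of the 4 genes for eIF5A and its hypusine, which is made from spermidine, 3 fell in HD-het and none rose, where 29.1% of all tested genes fell. Eif5a, the target protein's gene, had means of 3230 ± 157 CPM in control (SD, n = 3), 1670 ± 82.9 in HD-het and 3013 ± 226 in HD-homo, a log2 fold change of -0.95 in HD-het (edgeR adjusted p = 3.9e-06). Dohh, the hydroxylase that completes hypusine, fell by 1.11 in HD-het (edgeR adjusted p = 1.1e-05) and by 0.60 in HD-homo (edgeR adjusted p = 0.0011). Dhps, the synthase that starts it, fell by 0.54 in HD-het (edgeR adjusted p = 0.00027) and rose by 0.35 in HD-homo (edgeR adjusted p = 0.0061).

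The salvage of methylthioadenosine, the by-product of both aminopropyl transfers, gave 4 of 5 genes lower in HD-het and none higher, again beside 29.1% lower over all tested genes. Mtap, the phosphorylase that opens this salvage, had means of 325 ± 9.70 CPM in control (SD, n = 3), 164 ± 11.1 in HD-het and 282 ± 14.0 in HD-homo, a log2 fold change of -0.99 in HD-het (edgeR adjusted p = 2.1e-06). Adi1, a later enzyme of the route, was lower in HD-het by -0.46 (edgeR adjusted p = 0.00036) and higher in HD-homo by 0.26 (edgeR adjusted p = 0.0145), and the HD-homo call was lost without control replicate 1 (edgeR adjusted p = 0.0600) and without control replicate 2 (edgeR adjusted p = 0.0554). Mri1, an isomerase of the route, had a log2 fold change of -0.38 in HD-het (edgeR adjusted p = 0.0322), which did not pass without control replicate 3 (edgeR adjusted p = 0.136), HD-het replicate 1 (edgeR adjusted p = 0.0833) or HD-het replicate 2 (edgeR adjusted p = 0.0926). Set against HD-het, all 5 were higher in HD-homo.

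Of the 6 transport genes tested, 4 were higher in HD-het and none lower, where 31.0% of all tested genes were higher. The list joins transport of polyamines with that of cationic amino acids. Atp13a3 was higher in HD-het by 0.47 (edgeR adjusted p = 0.00057). Atp13a2, at 0.13 (edgeR adjusted p = 0.633), and Slc18b1, at 0.22 (edgeR adjusted p = 0.163), were not called there. The other genes of the list act on amino acids. Slc7a2, a carrier of cationic amino acids such as arginine, had means of 4.88 ± 0.294 CPM in control (SD, n = 3), 15.2 ± 4.79 in HD-het and 21.3 ± 4.78 in HD-homo, log2 fold changes of 1.63 (edgeR adjusted p = 8.1e-05) and 2.12 (edgeR adjusted p = 1.4e-05). Slc7a1, a carrier of the same substrates, was higher in HD-het by 0.88 (edgeR adjusted p = 0.00051) and not called in HD-homo, at -0.35 (edgeR adjusted p = 0.0833). Slc3a2, the shared heavy chain of several amino acid exchangers, was higher in HD-het by 0.49 (edgeR adjusted p = 0.0100), a call lost without HD-het replicate 3 (0.36, edgeR adjusted p = 0.0533).

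Of the 6 precursor supply genes tested, 2 were higher and 2 lower in HD-het, 4 called where 60.1% of all tested genes were. Oat, the mitochondrial aminotransferase of ornithine, had means of 110.2 ± 6.53 CPM in control (SD, n = 3), 184 ± 7.21 in HD-het and 132 ± 8.59 in HD-homo, log2 fold changes of 0.74 (edgeR adjusted p = 1.7e-05) and 0.26 (edgeR adjusted p = 0.0210). The latter call was lost without control replicate 1 (edgeR adjusted p = 0.101), control replicate 3 (edgeR adjusted p = 0.0803) or HD-homo replicate 1 (edgeR adjusted p = 0.0642). Mat2a, which makes S-adenosylmethionine, was lower in HD-het by -0.34 (edgeR adjusted p = 0.0144). Arg2, a mitochondrial arginase that yields ornithine, was close to the detection floor, with 5, 9 and 9 counts in control, 1 in each HD-het library, and 59, 44 and 29 in HD-homo. Its level in HD-homo, a mean of 1.54 CPM, was at least 13.6-fold higher than in HD-het, when HD-het is set at the floor of 3 counts a library (edgeR adjusted p = 5.7e-07).

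The Myc network includes textbook regulators of Odc1 transcription. Myc had means of 357 ± 12.3 CPM in control (SD, n = 3), 168 ± 12.5 in HD-het and 288 ± 58.7 in HD-homo. Against control, Myc had a log2 fold change of -1.09 in HD-het (edgeR adjusted p = 3.7e-05) and gave -0.31 in HD-homo (edgeR adjusted p = 0.0727), where it passed with no filter on low counts (edgeR adjusted p = 0.0442) and without HD-homo replicate 3 (-0.43, edgeR adjusted p = 0.0269). Max, the partner of Myc on DNA, fell by 1.05 in HD-het (edgeR adjusted p = 1.4e-05). Mycl, a relative of Myc at 2.08 ± 0.393 CPM in control, was not called in HD-het and was lower in HD-homo by -0.92 (edgeR adjusted p = 0.0152), a call lost without control replicate 1 (edgeR adjusted p = 0.0559) or HD-homo replicate 1 (edgeR adjusted p = 0.0607).

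The paralogs of the members other than Amd2 held few counts. Azin2, a second antizyme inhibitor, had 23, 65 and 37 counts in control, 81, 118 and 66 in HD-het, and 127, 93 and 56 in HD-homo. On the log2 scale Azin2 was higher by 1.28 in HD-het (edgeR adjusted p = 0.00045) and by 1.31 in HD-homo (edgeR adjusted p = 0.00055), whereas Azin1 was lower in HD-het. Sat2, a relative of Sat1, had means of 3.43 ± 0.546 CPM in control (SD, n = 3), 6.56 ± 0.693 in HD-het and 3.70 ± 0.645 in HD-homo, a log2 fold change of 0.95 in HD-het (edgeR adjusted p = 0.00058). Oaz3, the antizyme of the testis, had 1 count over all libraries and was not tested.

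**Figure D4:**
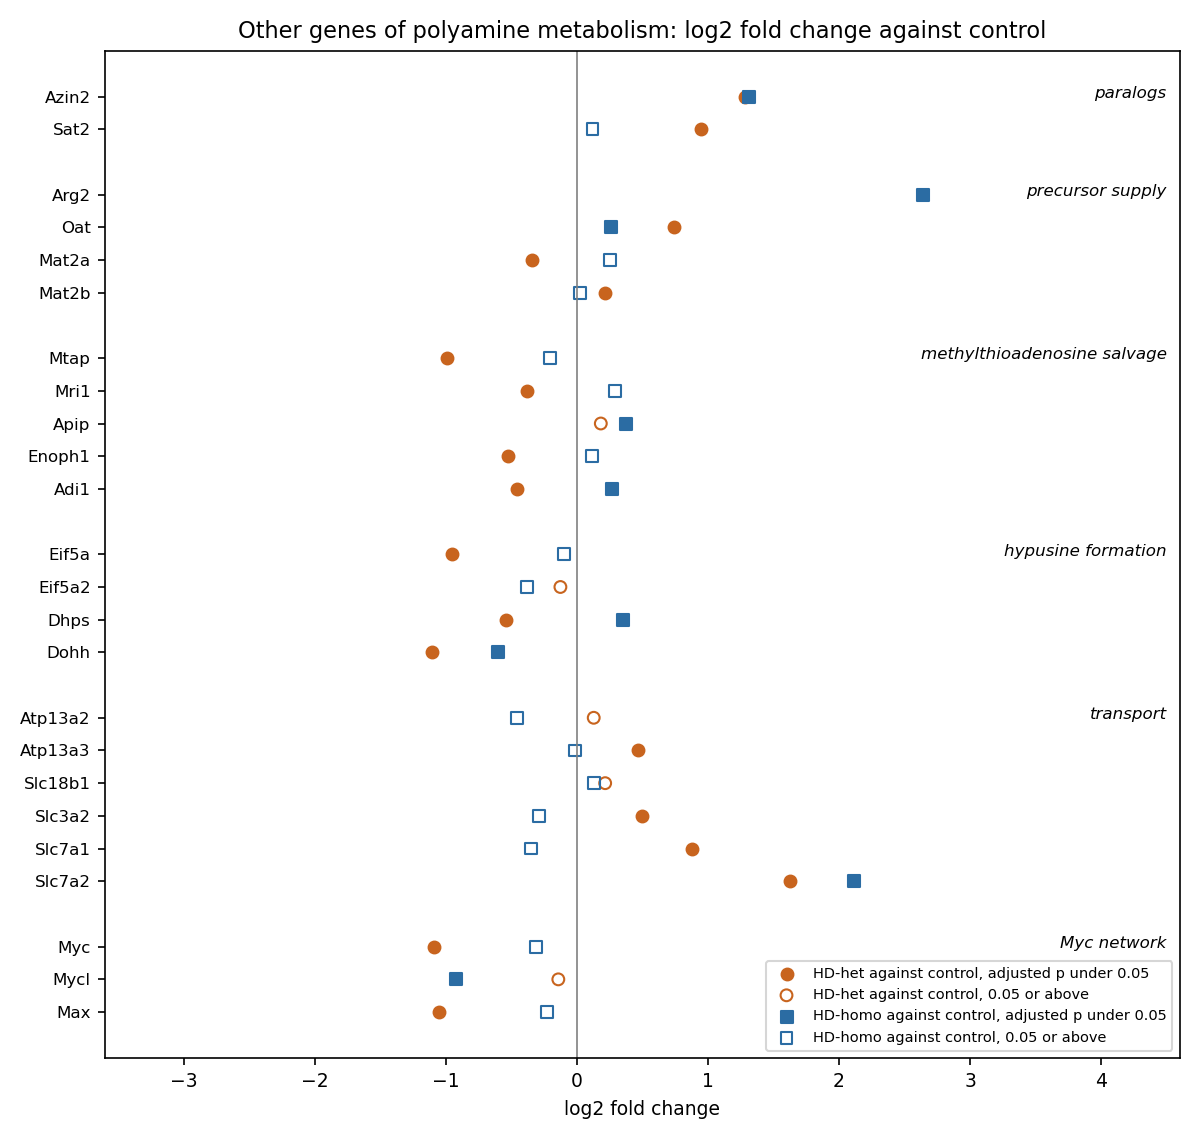
Log2 fold change against control (horizontal axis) of the other tested pathway genes, grouped by list, for HD-het (circles) and HD-homo (squares), filled where the edgeR adjusted p is under 0.05. Fold changes are drawn where either line reaches a mean of 1 CPM, which leaves out Arg1, Mat1a and Arg2 in HD-het, and Amd2 is not drawn. Hypusine and salvage genes lie mostly left of zero in HD-het, transport genes right of it.

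The genes whose log2 CPM followed most closely those members with the widest range among lines were looked up over the 9 libraries, which share only 3 line levels. For Srm these were Rpusd2 (Pearson r = 0.996), Ifrd2 (r = 0.995) and Timm8a1 (r = 0.994), among 7726 genes compared. For Oaz1 they were Tomm5 (r = 0.994), Timm13 (r = 0.993) and Sumo3 (r = 0.991). For Paox they were Cgnl1 (r = 0.982), Plekha2 (r = 0.981) and Sec16a (r = 0.976). Timm8a1, Timm13 and Tomm5 encode small parts of the mitochondrial protein import machinery. Timm13 had means of 174 ± 11.2 CPM in control (SD, n = 3), 71.9 ± 8.86 in HD-het and 148 ± 6.47 in HD-homo.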

How the data were processed

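The deposited table holds raw footprint counts per gene for the 9 libraries. According to the submitters' processing notes, the authors trimmed adapters with cutadapt and aligned reads with Bowtie 1.0.1 to mm10. The counting tool, the handling of multiply mapped reads and strand were not given in the sources used here. Counts were filtered with filterByExpr, scaled with TMM composition factors and tested across all 9 libraries with edgeR 4.0.16 (R 4.3.3, quasi-likelihood, line as the only term), with Benjamini-Hochberg adjustment over 12678 genes at 0.05. On simulated data the fit was checked for recovery of known changes. CPM are counts per 1000000 of the scaled library size, and coding lengths come from RefSeq (GRCm38), whose symbols or synonyms matched 93.0% of rows. DESeq2 1.42.0, other scalings, filters and sample sets were alternatives. Named pathway genes are the 3 with the largest called change of each list with the higher line averaging 1 CPM or more. For transport, the other tested genes are named too. The likeness search took the 3 members of widest range and genes of at least 10 CPM. The members and lists were chosen with earlier results of these data known.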

Additional observations from a re-analysis of the deposited data

Results flagged for a closer look

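Amd1 and Smox drew attention because every HD-het library lay below, and every HD-homo library above, all control libraries, although neither gene passed the test in HD-homo against control. The difference between the mutant lines, HD-homo minus HD-het, was 1.08 on the log2 scale for Amd1 (edgeR adjusted p = 5.6e-07) and 1.14 for Smox (edgeR adjusted p = 6.8e-05). For Amd1 the HD-homo side was small, at 0.07 against control (edgeR adjusted p = 0.525), and rested on control libraries that spread less than counting error. For Smox it was 0.40 (edgeR adjusted p = 0.0505).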

How the results depend on the processing

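Of 540 member fold changes under alternatives, 522 kept their direction and their side of the threshold, and 20 of 30 member comparisons did so under every alternative run. In HD-homo against control, members called higher numbered 1, but 2 with total counts, with at least 10 counts in every library and with the offsets for GC content and coding length, an alternative added after seeing the data. Leaving out 1 library gave 1 to 3 higher and 1 to 2 lower. With those offsets, values near zero changed sign, to 0.0125 for Oaz2 in HD-het against control, -0.00180 for Amd1, -0.00162 for Amd2 and -0.0198 for Sat1 in HD-homo against control, and -0.0108 for Sat1 in HD-homo against HD-het. Sat2 in HD-homo against control ranged from -0.0244 to 0.203 with 1 library left out, and was negative without control replicate 2 or HD-homo replicate 2. Azin2 in HD-homo against HD-het turned to -0.00286 with only the 6 libraries compared and ranged from -0.0520 to 0.172 with 1 library left out, negative without HD-homo replicate 1 or 2. The cause was not tested. Same-numbered libraries of different lines had a median correlation of deviations of -0.05 (-0.36 to 0.17 over 9 pairs). Other pairs had 0.01 (-0.28 to 0.38 over 18 pairs). No pairing by replicate number was seen, but so few libraries cannot show whether cultures were handled in pairs. With the replicate block, members called stayed at 1 higher and 7 lower in HD-het against control, and 8 in place of 9 members differed among the lines. Smox and Paox rest on the fewest counts, and counting error alone is 6.49% to 11.4% of their level.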
